A study of Saccharomyces cerevisiae with 28 samples.

Results

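The galactose step of the budding yeast strain labelled 4Gts was described from 2 cultures in YPA medium, both held at 25 °C: one before the shift, in 2% raffinose, and one 30 min after galactose had been added, in 2% raffinose and 2% galactose. Each culture gave a ribosome footprint library and an mRNA library, so the step rests on 4 of the 28 libraries of the series. These libraries were chosen by their titles, and no measured value entered the choice. The labels call the raffinose culture pre-shift and the galactose culture 0h, because a move to 36 °C followed it.

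The series profiled ribosomes in yeast depleted of eIF4G, with the strain labelled 4Gts (YWG1246, also YAJ41) set against a strain labelled WT (YWG1245, also YAJ3). eIF4G is the scaffold of the cap-binding complex eIF4F, and its gene pair in yeast is TIF4631 and TIF4632. Both strains went through the same galactose step in YPA, each stage of each strain being 1 culture, and the WT values stand beside those of 4Gts. Further alleles and promoters were not given in the sources used here. All cultures received 0.1 mg/ml cycloheximide at harvest.

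With 1 culture on each side there is no replicate check and no test. Every difference below compares these libraries, and the 95% intervals cover counting error only. A step is the galactose value minus the raffinose value on the scale of log2(RPKM + 1) after scaling the libraries to each other, where RPKM is the number of reads of a gene divided by its length and by the size of the library. Adding 1 RPKM understates the change of genes with low values. Translational efficiency (TE) is the scaled footprint level of a gene over its scaled mRNA level in the same culture. Steps were counted over 4731 of 6692 genes, those whose mean reached 10 RPKM in the YPA table of footprints and in that of mRNA. The mean ran over all stages of both strains, galactose included. A gene low on 1 side of the step could therefore pass through the side where it was high, which bears on the counts and medians below. A gene was counted as past the line when its step was at least 2-fold. In bulk cultures, fewer cells that express a gene and less RNA per cell cannot be told apart.

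The depth, read from the whole-read steps of low values, was 1.71e+06 reads for mRNA in raffinose and 2.09e+06 reads in galactose, and 2.87e+06 reads and 3.42e+06 reads for footprints. The WT libraries held 2.74e+06 to 5.62e+06 reads. At 10 RPKM a gene of 1 kb has a counting error of 17.1% to 24.2% in the 4Gts libraries.

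Galactose is taken up by the permease Gal2 and converted to glucose-1-phosphate and onwards to glucose-6-phosphate by the Leloir enzymes Gal1, Gal7 and Gal10 and by phosphoglucomutase. The activator Gal4 sits on the promoters of these genes and is held inactive by Gal80. Galactose and ATP bind Gal3, which then removes the block by Gal80. Raffinose neither represses nor induces the system, so that induction from raffinose is fast. New growth on another sugar also bears on the large gene groups that yeast tunes to growth rate, among them ribosome production and the general stress response.

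The labels were checked first. TIF4632 mRNA in 4Gts measured 1.29 RPKM in raffinose and 0.526 RPKM in galactose, from 6 and 3 reads, against 82.7 and 81.8 RPKM in WT. The second eIF4G gene was thus nearly absent from both 4Gts cultures. Genes of a-type cells were expressed: of 7 such genes none was at 0, with RPKM from 12.6 to 2592 in raffinose mRNA. Of 5 alpha-cell genes 3 were at 0 there and the highest stood at 13.1 RPKM, and the 12 genes of meiosis and sporulation reached at most 7.68 RPKM. The marker levels in the galactose culture were alike, with 2448, 14.8 and 5.24 RPKM as the highest values of the 3 sets.

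The permease and the Leloir genes went from low levels in raffinose to between 2181 and 3754 RPKM after galactose. GAL2, the galactose permease on chromosome XII (290212 to 291936, assembly R64), measured 10.7 RPKM of mRNA in raffinose and 2559.7 RPKM in galactose. GAL1, the galactokinase, went from 35.3 to 3754 RPKM of mRNA. GAL10, which carries the epimerase and mutarotase activities, went from 19.2 to 2181 RPKM. The transferase gene GAL7, which lies beside these on chromosome II, went from 24.5 to 2572 RPKM. All 4 were low in raffinose and high in galactose. The mRNA steps were 7.80 for GAL2 (95% interval 7.42 to 8.48), 6.78 for GAL10, 6.72 for GAL1 and 6.68 for GAL7. These were the 4 largest mRNA steps among all genes counted.

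Footprints of the same genes differed by a like amount. GAL1 footprints were 31.9 RPKM in raffinose and 4756 RPKM in galactose, and those of GAL7 were 15.2 and 2991 RPKM. GAL10 footprints went from 18.3 to 2120.5 RPKM. GAL2 footprints went from 12.7 to 2339 RPKM. The footprint steps lay between 6.79 and 7.54. Together these 4 genes took 0.0140% of all mRNA reads in raffinose and 1.75% in galactose (95% Wilson interval 1.73% to 1.77%), and 0.0126% and 1.90% of all footprints. Their TE steps were 0.02 for GAL10, 0.47 for GAL1, 0.86 for GAL7 and -0.37 for GAL2. None of these was past 2-fold, and the raffinose side rests on 31 to 94 mRNA reads per gene.

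The reference places the GAL7, GAL10 and GAL1 genes next to each other, at 274427 to 275527, 276253 to 278352 and 279021 to 280607 of chromosome II, assembly R64. GAL1 and GAL10 are read away from each other from a shared promoter. The gene after GAL1, the uracil permease gene FUR4 at 281443 to 283344, did not share the step. Its mRNA was 27.2 RPKM in raffinose and 29.7 RPKM in galactose, a step of 0.15 (interval -0.26 to 0.57), and it missed the filter on low values.

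PGM2, the main phosphoglucomutase, measured 107 RPKM of mRNA in raffinose and 901 RPKM in galactose, and 141 and 1439 RPKM of footprints. Its mRNA step of 3.09 was the smallest of the 5 pathway genes. All 5 were past 2-fold in mRNA and in footprints, with a median mRNA step of 6.72. For scale, 7% of all genes counted were at least 2-fold higher in 4Gts mRNA after galactose and 8.75% in footprints. Pairs of replicate SC cultures of one group differed in this list's mRNA median by -1.85 to 0.21 (replicate 2 minus replicate 1), a smaller size than the galactose step. The 4Gts pairs differed by -1.85 and -1.49 and the WT pairs by 0.21 and 0.02, all of them in galactose. PGM2 also stands in the general stress list described below.

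**Figure D1:**
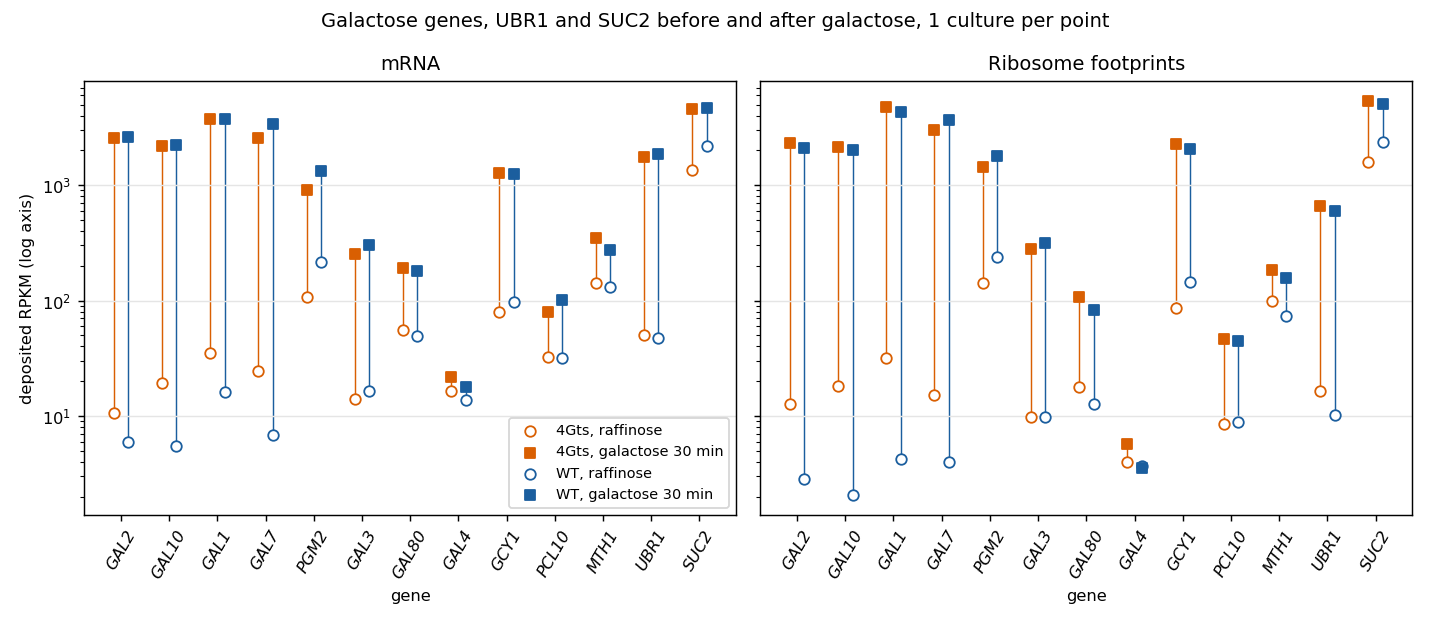
Deposited RPKM (log axis) of 13 genes in mRNA (left) and footprints (right), with open circles for the raffinose culture, squares for the galactose culture, orange for 4Gts and blue for WT; each point is 1 culture. GAL2, GAL10, GAL1 and GAL7 reached like levels in both strains after galactose from higher starting levels in 4Gts, and GAL4 stayed near its raffinose level.

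The regulators split by role. GAL3, the galactose sensor, had 14.1 RPKM of mRNA in raffinose and 254 RPKM in galactose, and 9.75 and 279.6 RPKM of footprints. GAL80, the inhibitor, had 55.3 and 189.6 RPKM of mRNA and 17.7 and 108 RPKM of footprints. GAL4, the activator itself, had 16.6 and 21.7 RPKM of mRNA. It missed the filter on low values, which asks for a mean of 10 RPKM in footprints as well as in mRNA. The mRNA steps were 4.10 for the sensor and 1.78 for the inhibitor, both past 2-fold, and 0.39 (interval -0.02 to 0.85) for the activator. The TE step of GAL80 was 0.77 (interval 0.30 to 1.25) in 4Gts and 0.79 in WT, while replicate cultures in SC differed in its TE by up to 1.21.

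Of the 4 further genes listed as bound by Gal4, the 3 that passed the filter were all past 2-fold in mRNA. GCY1, a glycerol dehydrogenase gene, went from 78.8 to 1287 RPKM of mRNA and from 85.4 to 2289.7 RPKM of footprints. PCL10, a cyclin of the kinase Pho85, went from 32.1 to 79.6 RPKM of mRNA and from 8.46 to 46.0 RPKM of footprints. MTH1, a repressor of hexose transporter genes, went from 143 to 346 RPKM of mRNA. The mRNA steps were 4.03, 1.30 and 1.29. PCL10 was also past 2-fold in TE, at 1.02 (interval 0.35 to 1.69), while MTH1 footprints moved less than its mRNA (TE step -0.39).

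After the 4 GAL genes above, UBR1 had the next largest mRNA step; it encodes a ubiquitin ligase that recognises proteins by their N-terminal residue. In heat-inducible degron strains this gene is commonly placed behind a GAL promoter; whether 4Gts carries such a promoter was not given in the sources used here. Its mRNA was 50 RPKM in raffinose and 1749 RPKM in galactose, and its footprints 16.6 and 666 RPKM. That is a step of 5.12 in mRNA (interval 5.02 to 5.28) and 5.26 in footprints, from 497 and 21357 mRNA reads. UBR1 took 1.02% of all mRNA reads after galactose but only 0.388% of all footprints. Its TE in 4Gts was 0.312 in raffinose and 0.358 in galactose, against 1.19 for GAL1 in the galactose culture.

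Other genes of the pathway had smaller steps. RAD6, the ubiquitin-conjugating partner of Ubr1, had an mRNA step of -0.07, and RPN4, the activator of proteasome genes, one of -0.14. CUP9, the repressor of peptide import that Ubr1 marks for destruction, had 46.4 and 82.5 RPKM of mRNA, a step of 0.84 (interval 0.44 to 1.28), and its footprints were past 2-fold at 1.08. The peptide transporter gene PTR2, which Cup9 represses, stayed at 0 and 1 mRNA reads in the 2 cultures. OPT2, an oligopeptide transporter gene, had 1 and 2. No protein was measured.

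Over all genes counted, the 4Gts step was broad. In mRNA, 331 genes were at least 2-fold higher after galactose and 221, or 4.67%, at least 2-fold lower. In footprints 414 were higher and 340, or 7.19%, lower. In TE the counts were 47 higher (1.01%) and 43 lower (0.928%) of 4632 genes with at least 10 RPKM of mRNA in both cultures. Counting error touched few of these calls, since the interval lay wholly on one side of 0 for 322 and 212 of the mRNA calls, 408 and 330 of the footprint calls, and 42 and 35 of the TE calls.

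The spread between cultures was the larger limit. Between 2 replicate cultures of one group in SC medium, 10.4% to 15.5% of genes were at least 2-fold apart in mRNA, 9.17% to 19.5% in footprints and 1.54% to 4.33% in TE. The galactose step, with 331 and 221 mRNA calls, lies within that range in mRNA, footprints and TE alike. The SC cultures were all in 2% raffinose and 2% galactose and had spent 2 or 8 h at 36 °C. They give no spread for raffinose cultures, and no YPA culture has a replicate. The share past 2-fold in mRNA and footprints was above that of the least different SC pair and below that of the most different one.

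**Figure D2:**
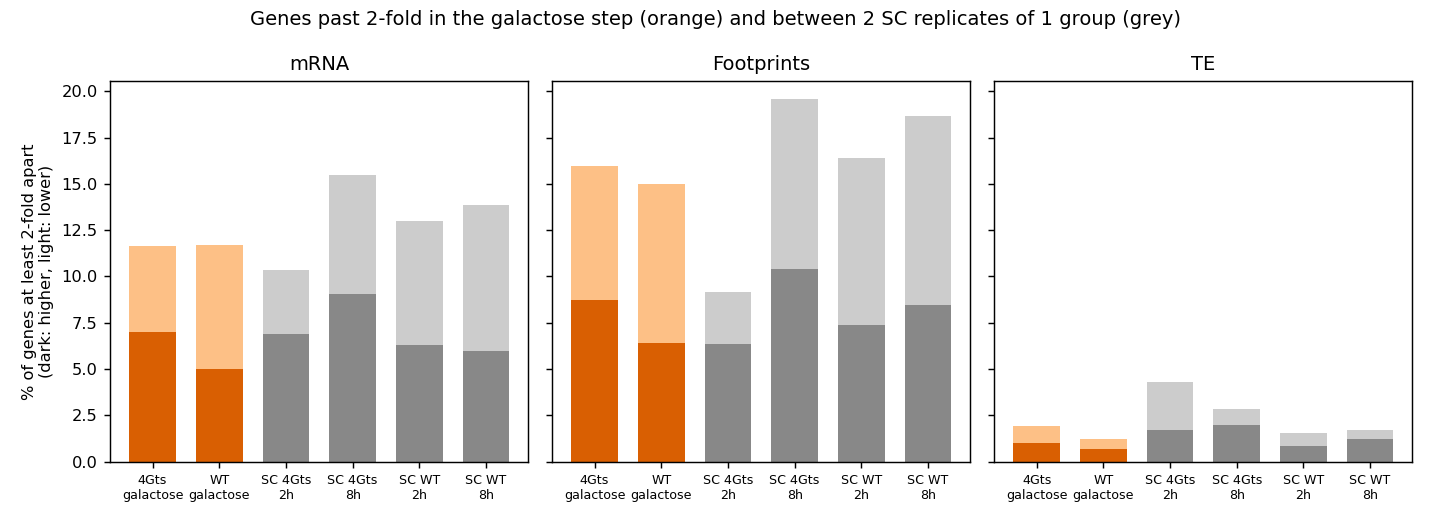
Share of genes at least 2-fold apart (in percent, dark for higher and light for lower), for the galactose step of 4Gts and WT in orange and for replicate 2 against replicate 1 of each SC group in grey, in mRNA, footprints and TE. The 4Gts galactose bars lie within the range of the replicate pairs in all 3 panels.

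Steps of single genes can be set against the same pairs. The largest difference between SC replicates was 2.47 for GAL1 mRNA, 2.85 for GAL10, 1.85 for GAL7, 1.80 for GAL2 and 2.18 for UBR1, each below the galactose step of that gene in 4Gts. These pairs were in galactose, so the spread of the raffinose levels is not covered. For HSP12 mRNA the replicates differed by up to 2.11, against a step of 4.96, and for AAH1 mRNA by up to 1.80, against -1.51. A gene named below without its SC replicate difference is not thereby shown to be beyond that spread.

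The next 3 mRNA steps after UBR1 were those of DSF1, HSP12 and HXT13, each with few reads in raffinose. HSP12, a small membrane-protecting protein of the general stress response, had 11.5 RPKM of mRNA in raffinose and 382 RPKM in galactose, and 33.1 and 1132 RPKM of footprints. DSF1, a mannitol dehydrogenase homologue, had 3.55 and 144 RPKM of mRNA, and HXT13, a transporter of hexoses and polyols, 1.75 and 62.0 RPKM. Their mRNA steps were 4.96, 5.03 and 4.56, resting on 6, 9 and 5 reads in raffinose. DSF1 and MAN2 are near-identical copies, as are HXT13 and other HXT genes, so reads may be shared between them. MOH1 had no mRNA read in raffinose and 10 in galactose, which puts it at least 2.75-fold higher against a floor of 3 reads.

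General stress genes, many of them targets of the activators Msn2 and Msn4, were higher after galactose as a group. Of 30 listed, 25 passed the filter, 24 were past 2-fold higher in mRNA and 23 in footprints, none was past 2-fold lower, and the median mRNA step was 2.39. YGP1, a secreted glycoprotein made in starvation, had 39.4 RPKM of mRNA in raffinose and 512 RPKM in galactose. MSC1 went from 30.5 to 250.3 RPKM of mRNA and from 17.7 to 332 RPKM of footprints. This list also separated replicate cultures: in all 4 SC groups its mRNA median was higher in replicate 2 than in replicate 1, by 0.66 to 1.84. The galactose step was larger than each of these differences and had the same sign. Its median was 2.01 without the filter on low values. It was only 1.82 with a mean of at least 50 RPKM and 1.85 with 5 RPKM added, about the size of the largest difference. How much of the step reflects such spread was not tested.

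Footprint steps of the stress genes were about as large as their mRNA steps. The median footprint step was 2.41 and the median TE step 0.15 over 20 genes, of which 5 were past 2-fold higher in TE. In WT 1 of 23 genes was past 2-fold higher in TE, with a median of 0.18, and the strain difference was not tested. SPI1, a cell wall protein gene, had 18.0 and 135 RPKM of mRNA but 6.60 and 147 RPKM of footprints, a TE step of 1.44 (interval 0.13 to 2.75). RTN2, a reticulon gene, had a TE step of 1.32, TFS1, an inhibitor of carboxypeptidase Y, 1.28, and MSC1 1.15.

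Genes of reserve carbohydrates went the same way. Of 15 trehalose and glycogen genes counted, 8 were past 2-fold higher in mRNA and none lower, with a median step of 1.24. SC replicates differed in this median by 0.06 to 1.06, each less than the step and of the same sign. GPH1, glycogen phosphorylase, had 147 RPKM of mRNA in raffinose and 815 RPKM in galactose. TSL1, a subunit of the trehalose synthase complex, had 44.6 and 214 RPKM, and GSY2, glycogen synthase, 70.3 and 246 RPKM. NTH2, a trehalase, stayed short of the line at 0.43.

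Heat shock genes were mixed. Of 24 counted, 7 were past 2-fold higher in mRNA, with a median step of 0.36. Replicates differed in this median by 0.41 to 1.37 in the SC groups, each more than the step and of the same sign. The chaperone gene SSA1 went from 832 to 2074 RPKM of mRNA, and HSP42 from 47.8 to 182 RPKM. For HSP42 mRNA, SC replicates differed by up to 2.32, more than its step. The inducible SSA4 stayed low, at 12.9 and 16 RPKM. Both cultures were at 25 °C, and the heat shock list's members past the line include HSP12 and HSP26, which Msn2 and Msn4 also drive.

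Sugar handling beyond galactose also differed between the cultures. SUC2, the invertase that splits raffinose, was already high, with 1364 RPKM of mRNA in raffinose and 4556 RPKM in galactose, and 1590.2 and 5389 RPKM of footprints. Its mRNA step of 1.76 (interval 1.71 to 1.81) came with a TE step of 0.02. HXK1, hexokinase 1, had 2069 and 6644 RPKM of mRNA, and GLK1, glucokinase, 740.3 and 2472 RPKM. Both are glucose-repressed genes, and their steps were 1.70 and 1.76. SC replicates differed in mRNA by up to 1.88 for HXK1, more than its step, and by up to 1.32 for GLK1. MAL12, a maltase gene, went from 9.82 to 60.1 RPKM of mRNA. HXT2, a high-affinity glucose transporter, was lower after galactose at 1260.0 and 910.2 RPKM of mRNA, a step of -0.45 that did not reach the line. MIG1, the repressor of glucose-repressed genes, had a step of 0.16.

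Gluconeogenesis and the glyoxylate cycle were higher in both layers. Of 12 genes counted, 9 were past 2-fold higher in mRNA and the same number in footprints, with median steps of 1.36 and 2.37. JEN1, the lactate and pyruvate permease, had 95.3 RPKM of mRNA in raffinose and 452 RPKM in galactose, and 33.8 and 305 RPKM of footprints. FBP1, fructose-1,6-bisphosphatase, had 0.573 and 15.4 RPKM of mRNA, and IDP2, cytosolic isocitrate dehydrogenase, 6.27 and 52.2 RPKM. The mRNA median of this list was higher in replicate 2 of every SC group, by 0.72 to 1.45, a range that takes in the galactose step.

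Mitochondrial genes had smaller steps, nearly all above 0. Of 17 TCA cycle genes, 8 were past 2-fold higher in mRNA and 1 lower, with a median step of 0.99. The succinate dehydrogenase genes SDH1, SDH2 and SDH4 had steps of 1.33, 1.26 and 1.46, while SDH3 was short of the line at 0.79. All 35 genes counted for the respiratory chain and ATP synthase had mRNA steps above 0, from 0.05 to 1.38, and 5 were past 2-fold. CYB2, lactate dehydrogenase, went from 137 to 352 RPKM of mRNA. NDI1, the internal NADH dehydrogenase, went from 138 to 332 RPKM of mRNA.

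The mitochondrial ribosomal proteins shifted together by a small amount. All 76 had steps above 0 in mRNA and in footprints, with medians of 0.53 and 0.72, while over all genes counted the median mRNA step was 0.01. Of these, 2 were past 2-fold in mRNA and 8 in footprints. Replicate pairs in SC differed in this list's mRNA median by -0.11 to 0.05, which is smaller in size than the step. The footprints exceeded the mRNA in 63 of the 76, with a median TE step of 0.20. In WT the medians were 0.40 in mRNA, 0.47 in footprints and 0.04 in TE. HAP4, the activator subunit for respiratory genes, had 206 and 304 RPKM of mRNA and 72.9 and 141 RPKM of footprints, short of 2-fold in both.

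In glycolysis single isozymes were past 2-fold. Of 20 genes counted, 3 were past 2-fold higher in mRNA and none lower, with a median of 0.49. ENO1, one of the enolase pair, had 120.5 RPKM of mRNA in raffinose and 704 RPKM in galactose. TDH1, the minor glyceraldehyde-3-phosphate dehydrogenase, had 28.9 and 149 RPKM, and TDH2 418 and 887 RPKM. Between SC replicates, mRNA differed by up to 2.15 for ENO1, 3.27 for TDH1 and 1.49 for TDH2, against steps of 2.56, 2.35 and 1.10. The list's mRNA median differed by -0.39 to 0.76 between SC replicates, a range that takes in the step. Reads of TDH and ENO copies may be shared.

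The lower side of the step was led by ribosome production. Ribosome biogenesis genes encode the nucleolar factors that make and process ribosomal RNA. Of 118 counted, all had steps below 0 in mRNA and in footprints, 68 were past 2-fold lower in mRNA and 110 in footprints. The median steps were -1.04 and -1.56. This list, too, separated replicate cultures: its median was lower in replicate 2 of every SC group, by -1.15 to -0.54 in mRNA and -0.98 to -0.46 in footprints. The galactose step lay inside that range in mRNA and beyond it in footprints.

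KRR1, needed for the small subunit, had 185 RPKM of mRNA in raffinose and 52.5 RPKM in galactose, and 249 and 62.8 RPKM of footprints. NOP7, a factor of the large subunit, had 319 and 101 RPKM of mRNA and 215 and 44.8 RPKM of footprints. NSR1, a nucleolin-like protein, had 706 and 369 RPKM of mRNA and 791 and 167 RPKM of footprints. The footprint steps of all 3 were further below 0 than their mRNA steps, least for KRR1 (TE step -0.18) and most for NSR1 (TE step -1.31, interval -1.47 to -1.14). The TE of NSR1 differed by up to 1.43 between SC replicates, more than this step.

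The larger difference in footprints held for most of the group. TE steps of ribosome biogenesis genes were below 0 in 114 of 118, with a median of -0.46, and 6 were past 2-fold lower. SC replicates differed in this TE median by -0.09 to 0.18, less in size than the galactose step. Their mRNA medians differed by -1.15 to -0.54, against a galactose step of -1.04. In WT the median TE step of the list was -0.36 over 113 genes. RIO1, a kinase of small-subunit maturation, had 53.7 and 38.4 RPKM of mRNA in 4Gts and 57.8 and 14.5 RPKM of footprints, a TE step of -1.45 in 4Gts and -1.64 in WT. IMP3, a small-subunit processome protein, had a TE step of -1.50 in 4Gts and -0.03 in WT. SC replicates differed in TE by up to 1.13 for RIO1 and 0.76 for IMP3.

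Several genes outside that list were among the largest falls and are given as values. The RNA polymerase III subunit gene RPC17 had 90.1 RPKM of mRNA in raffinose and 20.7 RPKM in galactose, from 71 and 20 reads, and RPC34 had 87.7 and 24.6 RPKM. RPC17 footprints were 85.3 and 50.7 RPKM, a smaller difference than in its mRNA. JJJ3, a J-protein of diphthamide synthesis, had the lowest mRNA step at -2.17 (interval -3.91 to -1.02), from 29.6 to 5.79 RPKM. EFM4, a methyltransferase that modifies elongation factor 1A, went from 74.3 to 19.7 RPKM of mRNA, and ECM1, an export factor of the large subunit, from 156 to 44.2 RPKM. TOD6, a repressor of ribosome biogenesis genes, was itself lower, at 39.3 and 6.78 RPKM of footprints.

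The ribosomal proteins themselves moved less. All 137 counted had mRNA steps below 0, 13 of them past 2-fold, with medians of -0.70 in mRNA and -0.74 in footprints. RPL9A had 2831 RPKM of mRNA in raffinose and 1131 RPKM in galactose. RPS26B had 2138 and 1149 RPKM. SC replicates differed in mRNA by up to 1.93 for RPL9A and 1.60 for RPS26B, each more in size than the step. The list's mRNA median differed by -1.31 to -0.42 between SC replicates, a range that takes in the step. Their median TE step was -0.03. Many of these genes come as near-identical pairs whose reads may be shared.

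Translation factors were lower by a like amount. All 20 further initiation factors had mRNA steps below 0, from -0.84 to -0.22, and none was past 2-fold in mRNA. Their median was -0.50, within the range of -0.69 to -0.41 by which SC replicates differed. SUI1, which encodes eIF1, had 737 and 408 RPKM of mRNA, and YEF3, elongation factor 3, 4091 and 2007 RPKM. For YEF3 mRNA, SC replicates differed by up to 1.67, against a step of -1.01. TIF4631, the eIF4G gene that 4Gts still expresses, had 286 RPKM of mRNA in raffinose and 324 RPKM in galactose, and 98.6 and 133 RPKM of footprints. Its mRNA step was 0.20, while in WT the values were 333 and 174 RPKM, a step of -0.96. In 4Gts its TE was 0.325 and 0.387, against 0.959 and 1.01 in WT. PAB1, the poly(A)-binding protein, had a step of -0.48 in mRNA and -0.94 in footprints. DBP1, a helicase related to Ded1, was past 2-fold higher from a low level, 9.61 to 20.1 RPKM of mRNA.

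**Figure D3:**
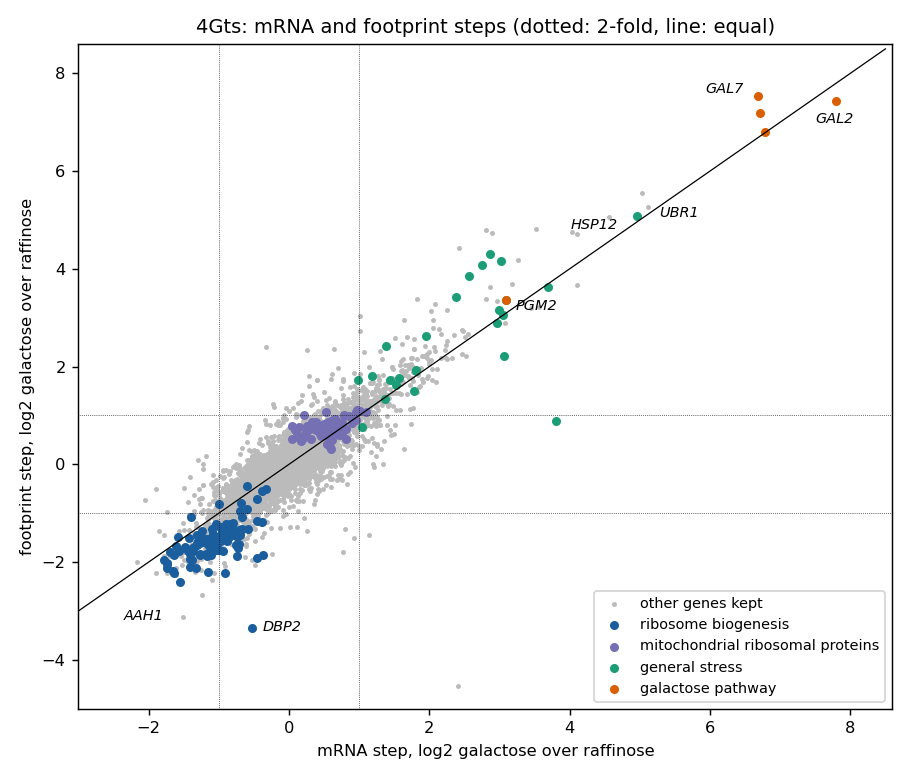
mRNA step (horizontal) against footprint step (vertical) of the 4731 genes counted in 4Gts, both as log2 of galactose over raffinose; each point is 1 gene, coloured by gene list. Ribosome biogenesis genes lie mostly below the line of equal steps and the galactose and general stress genes at the upper right, and DBP2 lies far below the line.

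Footprints tracked mRNA closely. Across the 4731 genes of the same 2 cultures, the mRNA and footprint steps had a Pearson correlation of 0.89 and a Spearman correlation of 0.86, given as a description because genes are not independent replicates. Of the 331 genes past 2-fold higher in mRNA, 276 (83.4%) were also past it in footprints, where they made up 66.7% of the 414. Of the 221 past 2-fold lower in mRNA, 168 (76%) were so in footprints, or 49.4% of the 340. The spread of the step was wider in footprints (SD 0.84 over genes) than in mRNA (SD 0.71), and smallest in TE (SD 0.36).

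**Figure D4:**
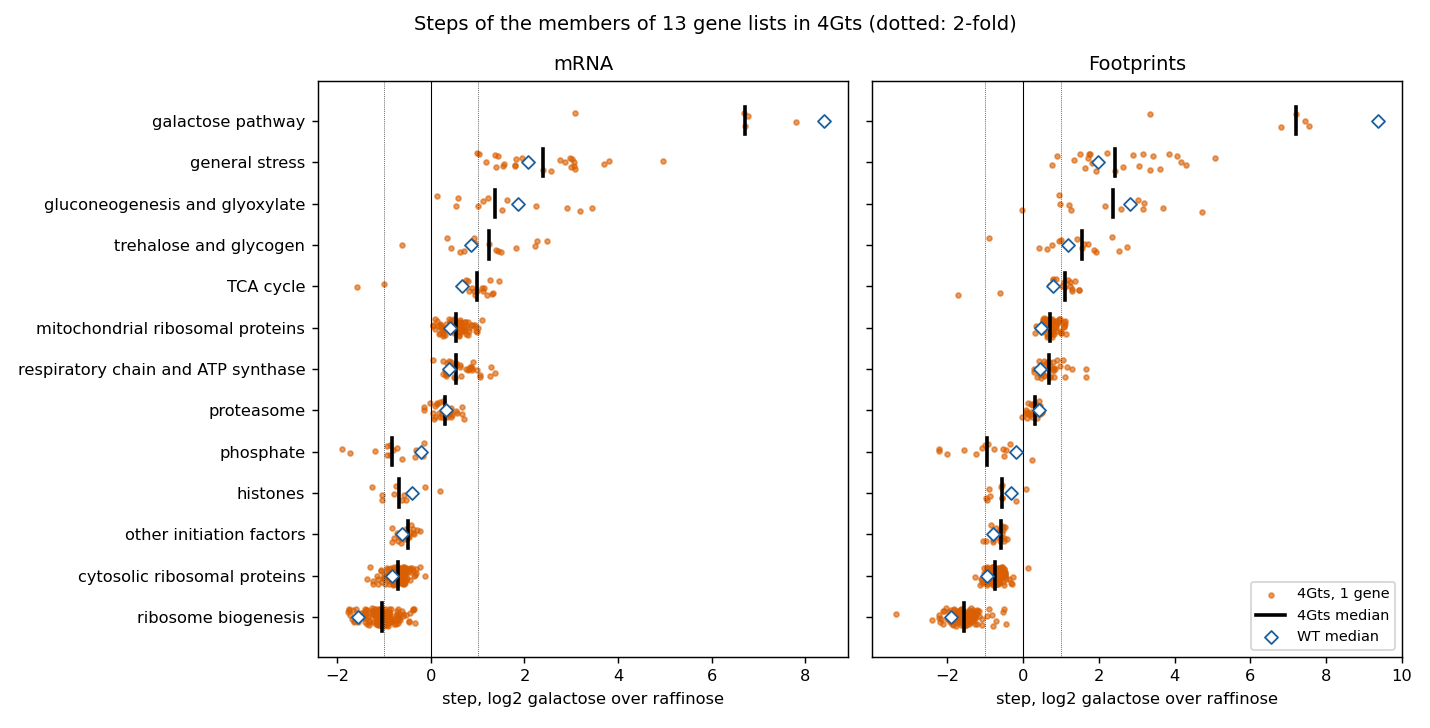
Steps (log2 of galactose over raffinose) of the members of 13 gene lists in 4Gts, in mRNA (left) and footprints (right); each orange point is 1 gene, the black bar is the 4Gts median and the blue diamond the WT median. The medians of the galactose, stress and carbohydrate lists lie above 0 and those of the cytosolic ribosome lists below 0 in both strains.

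Among the other lists, amino acid genes that Gcn4 activates were mixed: of 48 counted, 1 was past 2-fold higher in mRNA and 5 lower, with a median of -0.30. LEU9 had 154 RPKM of mRNA in raffinose and 63.7 RPKM in galactose. GCN4 itself, whose mRNA carries regulatory upstream frames, had 1484 and 1510.3 RPKM of mRNA against 38.6 and 30.2 RPKM of footprints. Its TE was therefore low in both cultures, at 0.0245 and 0.0188. Of 21 methionine and sulfur genes, 5 were past 2-fold higher in mRNA, among them MET17 at 308 and 928 RPKM and MET3, ATP sulfurylase, at 14.0 and 51.1 RPKM. For MET17 mRNA, SC replicates differed by up to 2.16, more than its step.

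Purine genes differed in both directions, with 4 of 19 past 2-fold higher in mRNA and 2 lower. GUA1, GMP synthetase, had 380.0 RPKM of mRNA in raffinose and 151 RPKM in galactose. SC replicates differed in its mRNA by up to 1.35, about the size of its step. The glycine cleavage gene GCV1, in contrast, had 19.4 and 76.1 RPKM. AAH1, adenine deaminase, was lower still: its mRNA was 251 and 86.6 RPKM and its footprints 288 and 31.8 RPKM, a footprint step of -3.12 (interval -3.46 to -2.88). Its footprints differed by up to 2.70 between SC replicates.

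Phosphate genes were lower after galactose in 4Gts. All 14 counted had mRNA steps below 0 in 4Gts, 3 of them past 2-fold, with a median of -0.84 against -0.20 in WT. PHO89, a phosphate transporter, had 476 RPKM of mRNA in 4Gts in raffinose and 204 RPKM in galactose, and 174 and 220.0 RPKM in WT. Its mRNA differed by up to 3.30 in log2 between SC replicates, more than its 4Gts step. PHO11, an acid phosphatase, had 36.5 and 8.99 RPKM in 4Gts, and its near-identical copy PHO12 52.3 and 14.9 RPKM. The strain difference of this list was not tested, and SC replicates differed in its median by -0.73 to -0.25.

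Histone genes had a median step of -0.67, with 3 of 10 past 2-fold lower in mRNA. HTA2, a histone H2A gene, had 819 and 339 RPKM of mRNA. Cell-cycle genes had medians near 0, with none of 18 G1/S genes and none of 20 G2/M and M/G1 genes past 2-fold and with median steps of -0.04 and -0.11. CLN3, the G1 cyclin that senses growth, had 94.2 and 122 RPKM of mRNA. None of 34 proteasome genes and none of 23 ergosterol genes was past 2-fold in mRNA.

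Of 16 autophagy genes counted 3 were past 2-fold higher, led by ATG8, the ubiquitin-like protein of the autophagosome, at 23.1 and 75.2 RPKM of mRNA. The autophagy median of 0.72 lay within the range of 0.66 to 0.87 by which SC replicates differed. Of 16 iron genes 3 were past the line, with FIT2, a cell wall mannoprotein for iron uptake, at 249 and 1112 RPKM. Cell wall genes had 2 of 22 past 2-fold higher, nutrient permeases 1 of 18, and genes with regulatory upstream frames 1 higher and 2 lower of 16. Of 10 pentose phosphate genes 3 were past 2-fold higher, the second isozymes SOL4, GND2 and NQM1, which started at 10.2, 2.42 and 2.40 RPKM of mRNA. SC replicates differed in mRNA by up to 1.73 for ATG8, 3.21 for FIT2, 2.96 for GND2 and 3.02 for NQM1, each more than the step. For SOL4 they differed by up to 1.95, less than its step of 2.97. The 40 lists together held 103 of the 331 genes past 2-fold higher in mRNA and 98 of the 221 lower, so that most of these genes lay outside them.

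TE steps were smaller than those of either layer. DBP2, a DEAD-box RNA helicase whose gene holds an intron, had the lowest TE step. Its mRNA was 368 RPKM in raffinose and 252 RPKM in galactose, while its footprints were 364 and 34.4 RPKM. Its TE thus went from 0.931 to 0.128 in 4Gts, a step of -2.82, and from 1.18 to 0.182 in WT, a step of -2.63. Footprints were lower in galactose in both strains, by more than mRNA. The largest TE difference between SC replicates was 0.72 for this gene.

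NAF1, an assembly factor of box H/ACA particles, followed the same pattern, with 53.6 and 37.7 RPKM of mRNA in 4Gts and 38.1 and 8.24 RPKM of footprints. Its TE step was -1.59 in 4Gts (interval -2.20 to -0.98) and -1.24 in WT. YPL068C, an uncharacterised gene, had a TE step of -2.55 in 4Gts and -1.43 in WT. For AAH1 the TE steps were -1.62 and -0.91, with up to 1.02 between SC replicates. HOT13 had a TE step of -1.61 in 4Gts from 11 and 16 mRNA reads, and 0.39 in WT. YGL188C-A had one of -1.59 from 31 and 10 footprint reads.

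On the higher side, ICL1, isocitrate lyase of the glyoxylate cycle, had 29.1 RPKM of mRNA in raffinose and 59.0 RPKM in galactose but 4.44 and 43.1 RPKM of footprints. Its TE went from 0.144 to 0.686, a step of 2.02 (interval 1.28 to 2.76) in 4Gts and 2.14 in WT, with up to 1.91 between SC replicates. HBT1, a protein of polarised growth, had 12 and 67.8 RPKM of mRNA and 3.25 and 89.9 RPKM of footprints, a TE step of 2.01 in 4Gts and 1.59 in WT. MET3 had a TE step of 1.57 in 4Gts and 0.88 in WT, and EGO4 one of 1.99 in 4Gts against 0.24 in WT. ICL1 and HBT1 were past 2-fold in both strains, while MET3 and EGO4 were so in 4Gts only; the difference between strains was not tested.

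The remaining rises rest on few reads. URA10, the minor orotate phosphoribosyltransferase, had a TE step of 2.73 with an interval of 0.45 to 5.01, from 2 footprint reads in raffinose and 22 in galactose. YBR219C had 4 and 37 footprint reads, FUN19 5 and 62, and YMR181C 11 and 49. In WT the TE steps of URA10, FUN19 and YMR181C were 1.88, 1.35 and 1.31, also past 2-fold higher, and that of YBR219C was -0.31.

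**Figure D5:**
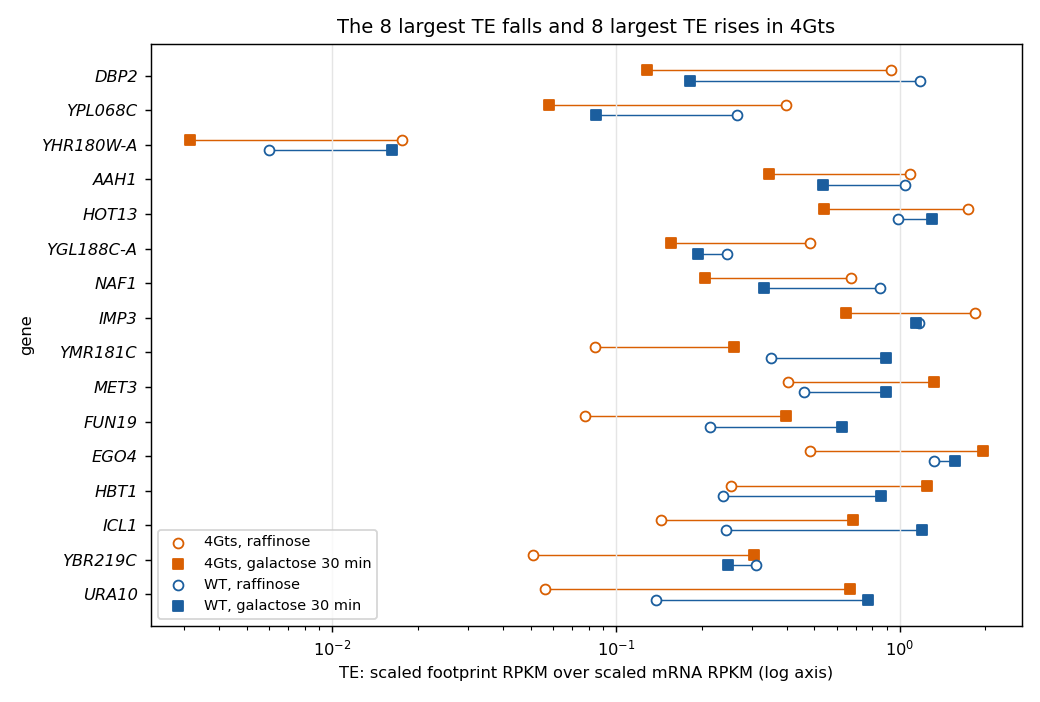
TE (scaled footprint RPKM over scaled mRNA RPKM, log axis) of the 8 genes with the largest TE falls (top) and the 8 with the largest TE rises (bottom) in 4Gts; open circles are the raffinose culture, squares the galactose culture, orange 4Gts and blue WT. The rows were chosen by the 4Gts step. The WT step had the same sign for DBP2, NAF1, ICL1 and HBT1, among others, and the opposite sign for YHR180W-A, HOT13 and YBR219C.

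The step in WT, which shares no library with that of 4Gts, ran alongside it. In WT, 237 genes (5.01%) were past 2-fold higher in mRNA and 316 (6.68%) lower, 304 (6.43%) and 404 (8.54%) in footprints, and 32 (0.688%) and 25 (0.537%) in TE. In mRNA 184 genes were past 2-fold higher in both strains, 55.6% of the 4Gts genes and 77.6% of the WT genes, and 146 were lower in both, 66.1% and 46.2%. In footprints 245 were higher in both, 59.2% and 80.6%, and 288 lower in both, 84.7% and 71.3%. In TE 8 were higher in both and 6 lower in both, 17% and 14% of the 4Gts genes. Across genes the 4Gts and WT steps correlated at 0.83 in mRNA, 0.89 in footprints and 0.25 in TE (Pearson), as a description over genes whose strains were each represented by 1 culture per stage.

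The GAL values of the strains lay further apart in raffinose than in galactose. GAL1 mRNA in raffinose was 35.3 RPKM in 4Gts and 16.2 RPKM in WT, and GAL7 mRNA 24.5 and 6.81 RPKM. GAL1 footprints in raffinose were 31.9 and 4.21 RPKM. After galactose GAL1 mRNA was 3754 RPKM in 4Gts and 3727 RPKM in WT, and GAL7 mRNA 2572 and 3400.0 RPKM. The steps were thus smaller in 4Gts, at 6.72 against 7.73 for GAL1 and 6.68 against 8.74 for GAL7, from lower levels in WT raffinose. UBR1 began and ended alike, with mRNA steps of 5.12 and 5.22. SUC2 also ended alike, at 4556 and 4621 RPKM of mRNA, from 1364 RPKM in 4Gts and 2187 RPKM in WT.

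Ribosome biogenesis mRNA had a median step of -1.04 in 4Gts and -1.55 in WT, with 68 and 102 of 118 genes past 2-fold lower. In footprints the medians were closer, at -1.56 and -1.91, with 110 and 113 genes. General stress mRNA had medians of 2.39 and 2.08, and TCA cycle mRNA 0.99 and 0.67. HSP12 mRNA in galactose was 382 RPKM in 4Gts and 269 RPKM in WT, from 11.5 and 30.0 RPKM. With 1 culture per strain and stage, strain and culture cannot be told apart in any of these differences.

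A later culture of 4Gts had spent 2 h at 36 °C. It is 1 culture, and temperature, time and depletion of eIF4G cannot be told apart between it and the galactose culture at 25 °C. GAL1 mRNA was 923 RPKM in the 36 °C culture and GAL2 mRNA 291 RPKM, below the galactose culture at 25 °C and above raffinose. Together GAL1, GAL10, GAL7 and GAL2 took 0.607% of its mRNA reads, against 1.75% in galactose at 25 °C. In WT they took 2.80% after 2 h at 36 °C and 1.85% in galactose at 25 °C. In 4Gts after 2 h at 36 °C, HSP12 mRNA was 7.02 RPKM and KRR1 mRNA 215 RPKM, near their raffinose levels. PTR2 mRNA, near 0 in the earlier cultures, stood at 112 RPKM.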

How the data were processed

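Ribosome footprints and total mRNA depleted of ribosomal RNA were sequenced, and the 4 YPA libraries of 4Gts before and after galactose are described here, with the WT libraries beside them. Per the submitters' processing notes, TopHat, DESeq (role not given) and the build sacCer3 were used; versions, counting rule, use of strand and filters were not given in the sources used here. What the authors deposited were RPKM values per gene and library, not pooled, and for YPA a linear ratio of footprints over mRNA. That deposited ratio equalled the footprint over mRNA RPKM times a constant per culture (1.32 and 1.31 for the 4Gts cultures) and served as an alternative.

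Each YPA library was divided by the median, over genes, of its ratio to the mean of the libraries in that table. TE was counted among genes with at least 10 RPKM of mRNA in both cultures. Depth was read from low RPKM values, of which 96.3% to 97.8% in the 4Gts libraries were whole multiples of 1 read (within 0.05 reads, up to 10 reads) after gene length was shortened by 24 nt. For genes with introns these read numbers are overstated, and no interval is given for DBP2. Intervals of single steps are exact (Clopper-Pearson), those of TE normal on the log scale, and those of shares Wilson intervals, all at 95%. Reads were not marked by molecule, so intervals and floors cover counting error only. Values of near-identical gene copies, and of genes that overlap or have an antisense partner, are uncertain, since they may share reads. RefSeq names (assembly R64) matched 6008 of 6692 genes, and 2 of the list names matched none. No sample was left unassigned.

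With 1 culture a side no test was made. The genes named were 25 preset genes, the 12 largest rises and falls of the 4Gts step in mRNA and in footprints, the 8 largest in TE, and up to 4 members past 2-fold per list and layer (otherwise 2 as values). The members and the 40 lists were chosen with earlier results of these data known. The 8 SC cultures, filtered and scaled in the same way in their own tables, served only as a measure of the spread between replicates. The alternatives tried were 2 other scalings, 2 other added constants, 2 other filters and the authors' ratio. The step functions were tested on simulated data. Python 3.11.15 was used with numpy 2.4.6, pandas 2.3.3, scipy 1.17.1 and matplotlib 3.10.9. The values of 1 gene that the rule picked are not reported here.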

Additional observations from a re-analysis of the deposited data

Results flagged for a closer look

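With 1 culture per strain and stage, a gene was picked out where the galactose step was at least 2-fold in opposite directions in 4Gts and WT. None of these differences between strains was tested, and most rest on few reads. In mRNA there was 1 such gene, YIL156W-A, with a step of -1.30 in 4Gts (14.0 and 5.05 RPKM) and 1.01 in WT (14.6 and 30.9 RPKM). In footprints there was YJL077W-A, with a step of -4.53 in 4Gts (from 4 reads to 0) and 2.08 in WT (from 1 read to 5). The 4Gts value depends on the added constant and is no measured fold: against a floor of 3 reads the gene was at least 1.57-fold lower, which does not reach 2-fold. In TE there were 4. YHR180W-A had TE steps of -2.42 in 4Gts and 1.39 in WT; its mRNA was 2342 and 4383 RPKM in 4Gts against 43.9 and 14.7 RPKM of footprints. PUS5, a pseudouridine synthase gene, had TE steps of -1.19 and 1.49, from 17 and 49 mRNA reads in 4Gts and 57 and 24 in WT. YGL204C had -1.01 and 1.25, and YHR073W-A 1.07 and -1.23. Apart from YJL077W-A and YHR180W-A, these genes fall outside the rule for named genes and were chosen after their values were seen.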

How the results depend on the processing

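With 1 culture a side no replicate could be left out. Against 331 and 221 genes past 2-fold higher and lower in mRNA, 414 and 340 in footprints and 47 and 43 in TE, a mean of at least 50 RPKM left 211 and 130, 240 and 210, and 15 and 12, as fewer genes are counted. Without the filter on low values the counts were 538 and 376 in mRNA and 82 and 84 in TE. With 5 RPKM added, TE had 27 and 20. By the authors' deposited ratio it had 30 and 26 over fewer genes. All other counts, including those on unscaled RPKM, after quantile normalization and with 0.1 RPKM added, stayed within 1.5 times.

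Without the filter the median of the galactose regulators was 1.78 in mRNA and 2.56 in footprints, since GAL4 then enters. Quantile normalization put the mitochondrial ribosomal proteins at 0.60 in footprints and 0.14 in TE, and the cytosolic ones at -0.46 in mRNA and -0.49 in footprints (from -0.70 and -0.74). The footprint median of the hexose transporters changed sign, to -0.14, where a mean of at least 50 RPKM was asked, since HXT2 and HXT7 are then left. With the same filter the list of sucrose, raffinose and maltose use fell short of 2-fold, at 0.72 in mRNA and 0.86 in footprints (from 1.75 and 1.92). Of 18 list medians past 2-fold, 3 were lost with that filter, 2 without any filter and 1 after quantile normalization. No named gene past 2-fold changed sign under any of these alternatives; 25 of 290 such steps fell short of 2-fold after quantile normalization and 23 with 5 RPKM added. No paired analysis was possible because no result comes from a test. Depth limits mainly the TE of genes with few reads in raffinose, and the spread between cultures limits the counts.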
